A study of Mus musculus with 64 samples.

Results

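Tmc3, Fam196b, Rprm, Ipcef1, Lipg, Vwa5b2 and Tdrd5 are 7 protein-coding genes whose RNA was higher in the striatum of Q140 mice, and they are 7 of the 48795 genes in the deposited count table. They were selected on the data described here, for a large rise in Q140 striatum or for a rise larger than that in cortex, so the Q140 differences in either tissue describe the choice. No p is given for them, and where calls among the 7 are counted, they stand beside the share of all genes called and nothing is read from them. The rule set no numeric cut. RNA was sequenced from the striatum and the cerebral cortex of 32 C57BL/6 mice at 6 months of age, 8 mice per genotype, 4 females and 4 males each. The genotypes were heterozygous Q140 knock-in mice (Q140), heterozygous Q140 mice crossed with Polq+/- mice (Q140 Polq+/-), Polq+/- mice without Q140, and wild-type (WT) mice. This gave 64 libraries. Q140 is a knock-in model of Huntington's disease, in which a lengthened CAG repeat sits in the mouse huntingtin gene, Htt, under its own promoter, so the allele is present in every cell. Polq encodes DNA polymerase theta, an enzyme of end-joining DNA repair. The libraries are bulk tissue, so fewer cells of a type and less RNA per cell cannot be told apart in any level given here.

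Spiny projection neurons make up most striatal neurons and are the cells most affected in Huntington's disease, whose striatal RNA is known for the loss of spiny neuron identity genes. The 7 genes belong to no single pathway. Tmc3 is a member of the transmembrane channel-like family, whose relatives Tmc1 and Tmc2 form the mechanotransduction channel of inner-ear hair cells. Fam196b is the paralogue of a protein of the inhibitory postsynapse. Rprm (Reprimo) is induced by p53 and halts the cell cycle. Ipcef1 binds the cytohesins, exchange factors that load GTP on to ARF proteins. Lipg is endothelial lipase, a phospholipase that acts on high-density lipoprotein. Vwa5b2 carries a von Willebrand factor A domain. Tdrd5 is a Tudor domain protein of male germ cells, needed in mouse testis for sperm formation and transposon silencing.

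Counted reads per library (in units of 1e+06 reads) were 28.7 to 40.6 in striatum and 30.9 to 40.1 in cortex. All levels are CPM (counts per 1e+06 counted reads) after TMM scaling over the 64 libraries, unless per-length values (FPKM) are named. Htt itself had 194 ± 5.84 CPM in Q140 striatum and 202 ± 27.3 CPM in WT striatum (SD, n = 8 each). Polq averaged 1.34 ± 0.928 CPM in Q140 Polq+/- striatum and 1.64 ± 0.637 CPM in Polq+/- striatum, against 3.04 ± 0.401 CPM in Q140 and 3.09 ± 0.503 CPM in WT striatum (SD, n = 8 each). It fell to 0.184 CPM in the lowest library labelled Q140 Polq+/-, so these animals are called mice labelled Polq+/-. Striatal spiny markers were high in every striatal library, with summed levels of 9703 to 18852 CPM, against 1218 to 1373 CPM in cortex. Of the striatal libraries, 3 stand apart. WT male 2 had 189 CPM of 5 cerebellar granule cell genes, where the median WT striatum had 1.09 CPM, and 64.5 CPM of 10 cortical excitatory neuron genes, where the other 7 WT libraries had 29.6 to 34.0 CPM. Polq+/- female 3 had 1388 CPM of choroid plexus genes, where the median Polq+/- library had 33.7 CPM. WT male 3 had the lowest median correlation with its own group, 0.987.

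The promoters of 5 genes are shown because they differ widely in CpG content, although the genes were chosen for 1 direction of change. RefSeq's promoter table (GRCm38.p6) held 8 windows of these 5, each with 250 bases before the start and 50 after it. Windows are given 5′ to 3′ on the strand of the gene, and capitals mark the motif matches. The Tmc3 window lies at chr7:83584681-83584980 (plus strand), that of Rprm at chr2:54085503-54085802 (minus), Ipcef1 at chr10:6980416-6980715 (minus), Vwa5b2 at chr16:20589903-20590202 (plus) and Tdrd5 at chr1:156303299-156303598 (minus).
Tmc3: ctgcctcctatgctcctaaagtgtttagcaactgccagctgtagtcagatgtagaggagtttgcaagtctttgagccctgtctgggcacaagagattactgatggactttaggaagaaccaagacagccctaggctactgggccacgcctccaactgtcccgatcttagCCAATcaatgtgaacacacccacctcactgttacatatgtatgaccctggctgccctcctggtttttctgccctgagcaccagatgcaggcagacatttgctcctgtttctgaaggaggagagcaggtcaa
Rprm: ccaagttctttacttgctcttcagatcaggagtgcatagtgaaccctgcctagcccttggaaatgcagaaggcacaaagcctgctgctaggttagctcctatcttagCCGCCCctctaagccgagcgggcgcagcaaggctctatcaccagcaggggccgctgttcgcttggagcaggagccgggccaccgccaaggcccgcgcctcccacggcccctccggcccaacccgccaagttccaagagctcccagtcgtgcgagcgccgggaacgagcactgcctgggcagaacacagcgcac
Ipcef1: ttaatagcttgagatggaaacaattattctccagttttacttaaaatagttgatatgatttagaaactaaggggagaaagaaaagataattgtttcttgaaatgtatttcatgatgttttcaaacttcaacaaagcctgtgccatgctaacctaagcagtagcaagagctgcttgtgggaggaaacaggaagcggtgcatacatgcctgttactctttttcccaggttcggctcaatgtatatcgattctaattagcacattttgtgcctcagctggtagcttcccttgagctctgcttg
Vwa5b2: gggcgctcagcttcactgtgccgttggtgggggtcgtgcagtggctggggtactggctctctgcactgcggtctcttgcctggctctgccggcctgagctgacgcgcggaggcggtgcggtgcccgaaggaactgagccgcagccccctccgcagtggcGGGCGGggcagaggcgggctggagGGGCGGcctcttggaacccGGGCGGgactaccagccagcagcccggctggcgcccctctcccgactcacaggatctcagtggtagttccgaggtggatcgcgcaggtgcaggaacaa
Tdrd5: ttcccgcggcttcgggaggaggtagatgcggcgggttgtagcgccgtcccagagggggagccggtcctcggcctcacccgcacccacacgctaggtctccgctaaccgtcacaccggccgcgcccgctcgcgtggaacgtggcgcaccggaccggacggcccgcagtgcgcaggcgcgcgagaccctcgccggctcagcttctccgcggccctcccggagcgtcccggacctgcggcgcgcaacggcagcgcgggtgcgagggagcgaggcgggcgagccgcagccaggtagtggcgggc

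The Tdrd5 window had 48 CpG dinucleotides, more than 98.8% of the 32851 promoters in the table, whose median was 7. The Vwa5b2 window shown had 25 and the Rprm window 19, whereas the Ipcef1 window shown had 3 and the Tmc3 window 2. The Vwa5b2 window not shown had 11, and the Ipcef1 windows not shown had 6 and 4. Among 5 motifs searched on both strands, the GC box (GGGCGG) was found 3 times in the Vwa5b2 window shown, at -91, -67 and -48. These positions are counted from the start. The GC box was found once in the Rprm window, at -143, and not in the other Vwa5b2 window. It is present in 35.7% of all promoters. The CCAAT box (CCAAT), held by 37.4% of promoters, lay at -81 in Tmc3 and at -221 in the other Vwa5b2 window. The cyclic AMP response element (TGACGTCA, 1.79% of promoters), the TATA box (TATAAA, 13.6%) and the E-box (CACGTG, 7.15%) had no match in any of the 8 windows. None of the matches overlap, and a match is only a run of letters.

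On GRCm38, by the GENCODE annotation, Tmc3 spans chr7:83584927-83625614 on the plus strand and Fam196b chr11:34314822-34422640 on the plus strand. Rprm spans chr2:54084093-54085552 on the minus strand and, at 1460 bases, is the shortest of the 7. Ipcef1 spans chr10:6885796-7052478 on the minus strand, so the RefSeq start shown above lies inside its span. Lipg spans chr18:74939322-74961263 on the minus strand and Tdrd5 chr1:156255296-156303664 on the minus strand. Vwa5b2, at chr16:20589471-20605377 on the plus strand, shares its chromosome with Polq, 16.4 Mb away. The windows shown for Tdrd5 and Vwa5b2 also lie inside the spans of their genes. The final bases of the Tdrd5 window matched no annotated transcript of the gene, unlike those of the other windows shown.

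In the striatum the channel-like gene Tmc3 had a lowest, median and highest level of 2.32, 3.30 and 4.57 CPM in Q140 mice, against 0.594, 1.21 and 1.49 CPM in WT mice. On the Polq+/- background the same values were 2.88, 3.41 and 3.67 CPM in Q140 Polq+/- mice, against 0.696, 1.12 and 1.54 CPM in Polq+/- mice. Every Q140 carrier lay above every control in both pairs of groups. The fitted log2 fold change was 1.52 (SE 0.157) in Q140 against WT and 1.55 (SE 0.157) in Q140 Polq+/- against Polq+/- mice.

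Fam196b, of the inhibitory synapse family, had 7.16, 8.07 and 8.89 CPM (lowest, median, highest) in Q140 striatum, against 2.07, 2.59 and 4.91 CPM in WT striatum. In Q140 Polq+/- mice it had 5.78, 6.98 and 8.23 CPM, against 2.34, 2.95 and 3.89 CPM in Polq+/- mice. Again neither pair of groups overlapped. The highest WT value, 4.91 CPM, belonged to WT male 2, and the next WT mouse had 3.18 CPM. The log2 fold change in Q140 against WT mice was 1.48 (SE 0.119), and 1.64 (SE 0.0989) without WT male 2. It was 1.27 (SE 0.12) in Q140 Polq+/- against Polq+/- mice.

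Rprm, the cell-cycle arrest gene, had 10.7, 12.5 and 14.8 CPM in Q140 striatum, against 3.24, 4.69 and 5.87 CPM in WT striatum. In Q140 Polq+/- mice it had 10.2, 13.1 and 16.4 CPM, against 3.51, 4.73 and 6.24 CPM in Polq+/- mice. The lowest carrier stood well above the highest control in each pair. Its log2 fold changes were 1.42 (SE 0.112) in Q140 against WT and 1.38 (SE 0.111) in Q140 Polq+/- against Polq+/- mice.

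Ipcef1, the cytohesin partner, had 8.25, 8.76 and 10.3 CPM in Q140 striatum, against 3.08, 4.01 and 7.01 CPM in WT striatum. The top WT value was again that of WT male 2, followed by 5.39 CPM. In Q140 Polq+/- mice it had 7.70, 8.49 and 9.95 CPM, against 2.98, 3.44 and 3.72 CPM in Polq+/- mice. No group overlapped its control. The log2 fold change was 1.02 (SE 0.10) in Q140 against WT mice, or 1.16 (SE 0.0783) without WT male 2, and 1.33 (SE 0.103) in Q140 Polq+/- against Polq+/- mice.

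Lipg, endothelial lipase, was the one gene of the 7 whose groups overlapped. It had 0.918, 1.35 and 1.65 CPM in Q140 striatum, against 0.486, 0.895 and 1.14 CPM in WT striatum, and 6 of 8 Q140 mice lay above every WT mouse. In Q140 Polq+/- mice it had 1.01, 1.46 and 2.16 CPM, against 0.185, 0.552 and 1.06 CPM in Polq+/- mice, with 7 of 8 carriers above every control. Its log2 fold change was 0.69 (SE 0.201) in Q140 against WT and 1.29 (SE 0.208) in Q140 Polq+/- against Polq+/- mice. The difference between the backgrounds was not tested. These levels rest on 31 to 56 reads per Q140 library and 18 to 45 reads per WT library. On the Polq+/- background they rest on 33 to 79 reads per Q140 Polq+/- library and 6 to 33 reads per Polq+/- library.

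Vwa5b2 had 24.7, 30.0 and 34.4 CPM in Q140 striatum, against 12, 13.8 and 22.8 CPM in WT striatum. WT male 2 gave the 22.8 CPM, and the other WT mice did not exceed 15.2 CPM. In Q140 Polq+/- mice it had 24.6, 32.8 and 38.4 CPM, against 11.4, 13.3 and 17.4 CPM in Polq+/- mice. Carriers and controls did not overlap. The log2 fold change was 1.05 (SE 0.108) in Q140 against WT mice, or 1.16 (SE 0.0931) without WT male 2, and 1.26 (SE 0.108) in Q140 Polq+/- against Polq+/- mice.

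Tdrd5, the germ-cell Tudor gene, had the largest fold and the fewest reads. It had 0.800, 0.965 and 1.21 CPM in Q140 striatum, against 0.204, 0.263 and 0.656 CPM in WT striatum, from 25 to 38 reads per Q140 library and 8 to 25 per WT library. In Q140 Polq+/- mice it had 0.632, 0.958 and 1.18 CPM, against 0.134, 0.286 and 0.559 CPM in Polq+/- mice. Those values come from 21 to 49 reads per Q140 Polq+/- library and 5 to 18 per Polq+/- library. The groups did not overlap, and the highest WT value was once more that of WT male 2. The log2 fold change was 1.62 (SE 0.217) in Q140 against WT mice, or 1.86 (SE 0.209) without WT male 2, and 1.67 (SE 0.218) in Q140 Polq+/- against Polq+/- mice.

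**Figure D1:**
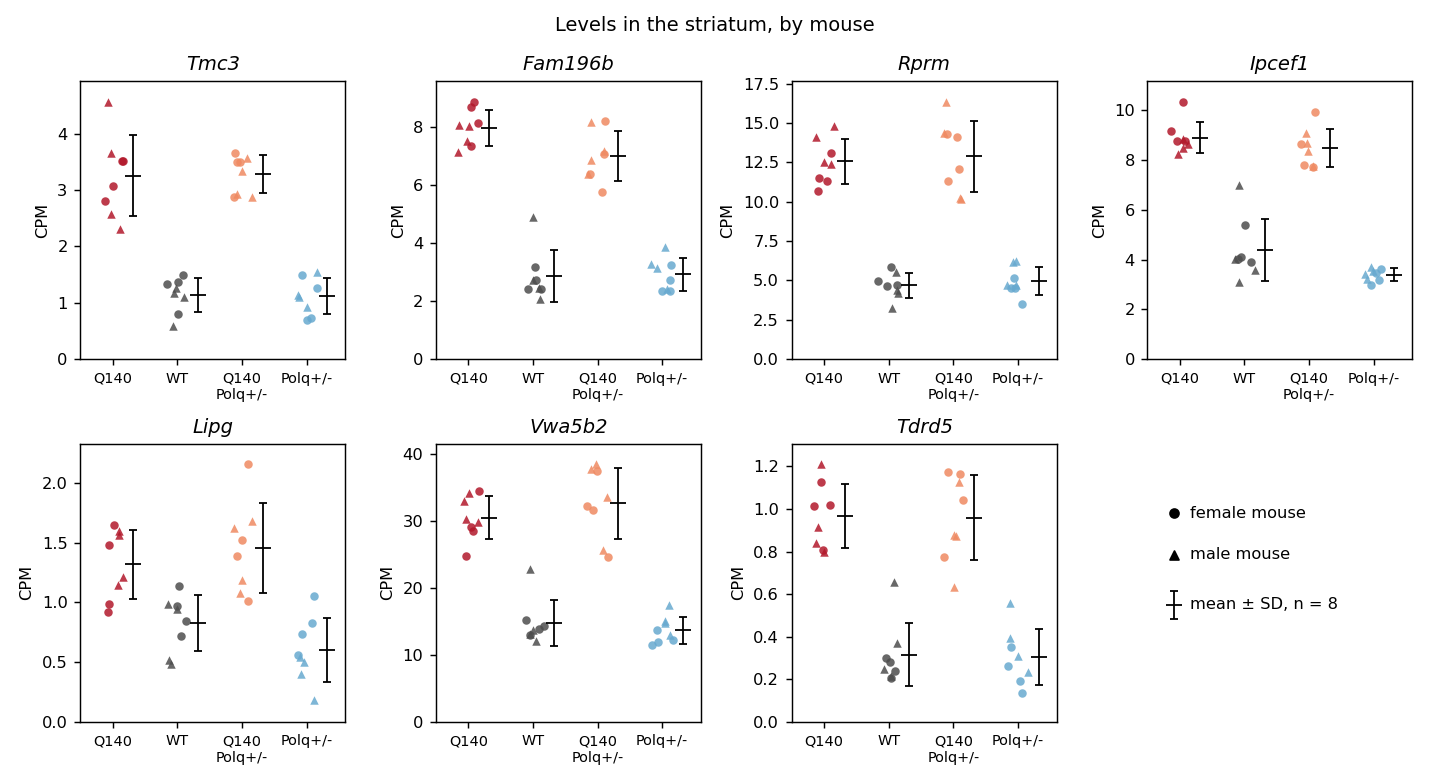
Level of each gene in the striatum (CPM, linear axes from 0), with 1 point per mouse, circles for females, triangles for males, and the mean ± SD of the 8 mice of each genotype beside them. For 6 genes every Q140 carrier lies above every control of its background; for Lipg the groups overlap, and the highest grey triangle of Fam196b, Ipcef1, Vwa5b2 and Tdrd5 is WT male 2.

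All 7 genes passed the filter on low counts, and the fit called all 7 higher in both striatal comparisons, as the choice of genes makes likely. Across all genes tested it called 32.1% in Q140 against WT striatum and 31.4% in Q140 Polq+/- against Polq+/- striatum (edgeR quasi-likelihood test, adjusted p under 0.05). Complete separation with carriers on top was found for 6 of the 7 in both comparisons, and for 3.86% and 4.76% of all genes in the same order. By log2 fold change in Q140 against WT striatum, Tdrd5 ranked 13th of 18270 genes, Tmc3 17th, Fam196b 20th, Rprm 22nd, Vwa5b2 45th, Ipcef1 52nd and Lipg 211th. On the Polq+/- background all 7 ranked between 12th and 26th.

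Compared per length, Rprm was the most abundant of the 7 in Q140 striatum at 8.95 FPKM, followed by Vwa5b2 at 4.19, Fam196b at 1.55 and Ipcef1 at 1.03 FPKM. Tmc3 at 0.375 FPKM and Lipg at 0.362 FPKM stood closer together than the spread between mice, and Tdrd5 was lowest at 0.145 FPKM. In WT striatum the order was Rprm at 3.20, Vwa5b2 at 1.94, Fam196b at 0.531, Ipcef1 at 0.485, Lipg at 0.217, Tmc3 at 0.125 and Tdrd5 at 0.0451 FPKM. Fam196b and Ipcef1 could not be separated beyond their spread there (SD 0.172 and 0.143 FPKM).

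The cortical differences were not alike. Tmc3 was again higher, with 0.679, 0.961 and 1.22 CPM in Q140 cortex, against 0.215, 0.344 and 0.835 CPM in WT cortex. All 8 Q140 mice exceeded the WT median, and 6 exceeded every WT mouse. The log2 fold change was 1.23 (SE 0.231) in Q140 against WT cortex and 1.1 (SE 0.229) in Q140 Polq+/- against Polq+/- cortex. The striatal effect exceeded the cortical one by only 0.37 (SE 0.212) on the log2 scale, averaged over both backgrounds. Of the 7 genes it had the smallest such difference between tissues.

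Ipcef1 and Lipg went the other way in cortex. Ipcef1 had 115, 126 and 137 CPM in Q140 cortex, against 130, 141 and 149 CPM in WT cortex, and 7 of 8 Q140 mice lay below every WT mouse. Its log2 fold change was -0.16 (SE 0.0358), and -0.10 (SE 0.0358) in Q140 Polq+/- against Polq+/- cortex. Lipg had 5.31, 6.19 and 7.48 CPM in Q140 cortex, against 5.92, 7.49 and 8.24 CPM in WT cortex. The Q140 mice all lay below the WT median of Lipg, but only 3 lay below every WT mouse. Its log2 fold changes were -0.23 (SE 0.0778) and -0.15 (SE 0.0778) on the WT and Polq+/- backgrounds.

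Rprm had 9.06, 15.6 and 30.6 CPM in Q140 cortex, against 8.95, 12.1 and 14.5 CPM in WT cortex, with log2 fold changes of 0.39 (SE 0.187) and 0.42 (SE 0.187) on the WT and Polq+/- backgrounds. The Q140 group was widely spread, with 5 of 8 mice above the highest WT mouse and the other 3 within the WT range. Fam196b (0.09, SE 0.187, against WT), Vwa5b2 (0.02, SE 0.0456) and Tdrd5 (0.17, SE 0.134) had small differences in Q140 against WT cortex, and on the Polq+/- background theirs were -0.06, -0.01 and 0.02. Their cortical groups overlapped on both backgrounds.

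**Figure D2:**
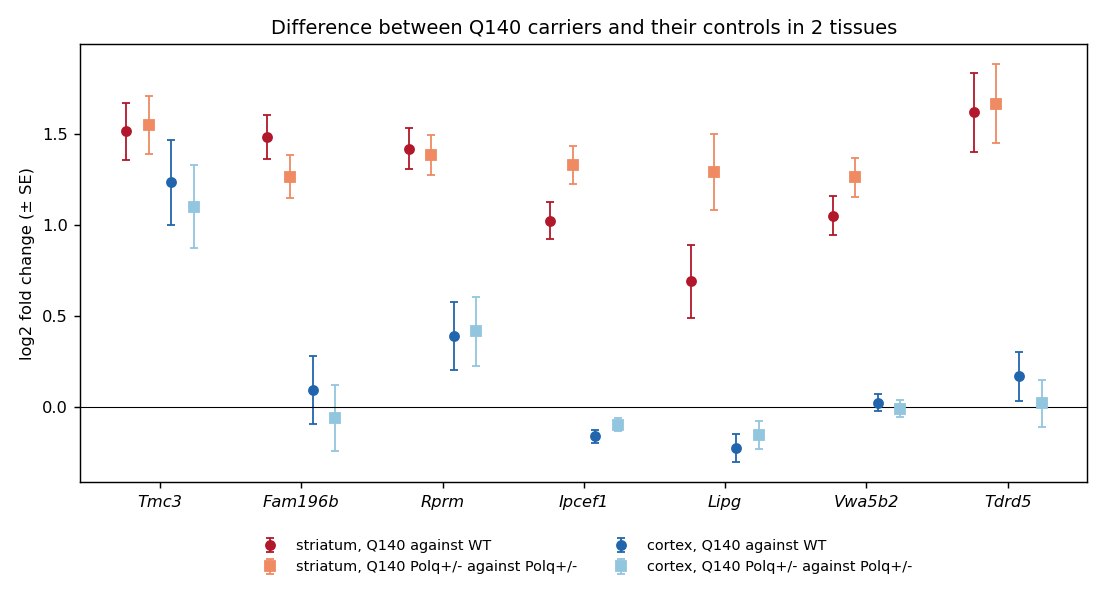
Log2 fold change of each gene between Q140 carriers and controls of the same background, with bars of 1 standard error, for striatum (reds) and cortex (blues) and for the WT (circles) and Polq+/- (squares) backgrounds. Tmc3 lies above 1 in both tissues, whereas Ipcef1 and Lipg lie below 0 in cortex.

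Of the 7, the fit called 2 in Q140 against WT cortex, Tmc3 higher and Ipcef1 lower, where 0.348% of all genes were called, and 1, Tmc3, in Q140 Polq+/- against Polq+/- cortex, where 0.337% were called. None of these calls held with a plate-column term (edgeR), where the log2 fold changes were 1.05 (SE 0.246) for Tmc3 and -0.15 (SE 0.0395) for Ipcef1 against WT, and 1.14 (SE 0.269) for Tmc3 on the Polq+/- background. The Ipcef1 call was also lost in limma fits on FPKM with either pseudocount, and the Tmc3 call on the Polq+/- background was lost with FPKM + 1. Plate columns were spread unevenly over the genotypes in both tissues, so plate position and genotype cannot be fully told apart. The effect in striatum was larger than in cortex by 1.37 (SE 0.162) for Fam196b, 1.0 (SE 0.131) for Rprm, 1.30 (SE 0.0756) for Ipcef1, 1.16 (SE 0.155) for Lipg, 1.14 (SE 0.0863) for Vwa5b2 and 1.55 (SE 0.185) for Tdrd5 on the log2 scale. The 2 tissues came from the same mice, and 32.1% of all genes were called in that contrast. It was part of the rule, so no count of the 7 is read from it.

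**Figure D3:**
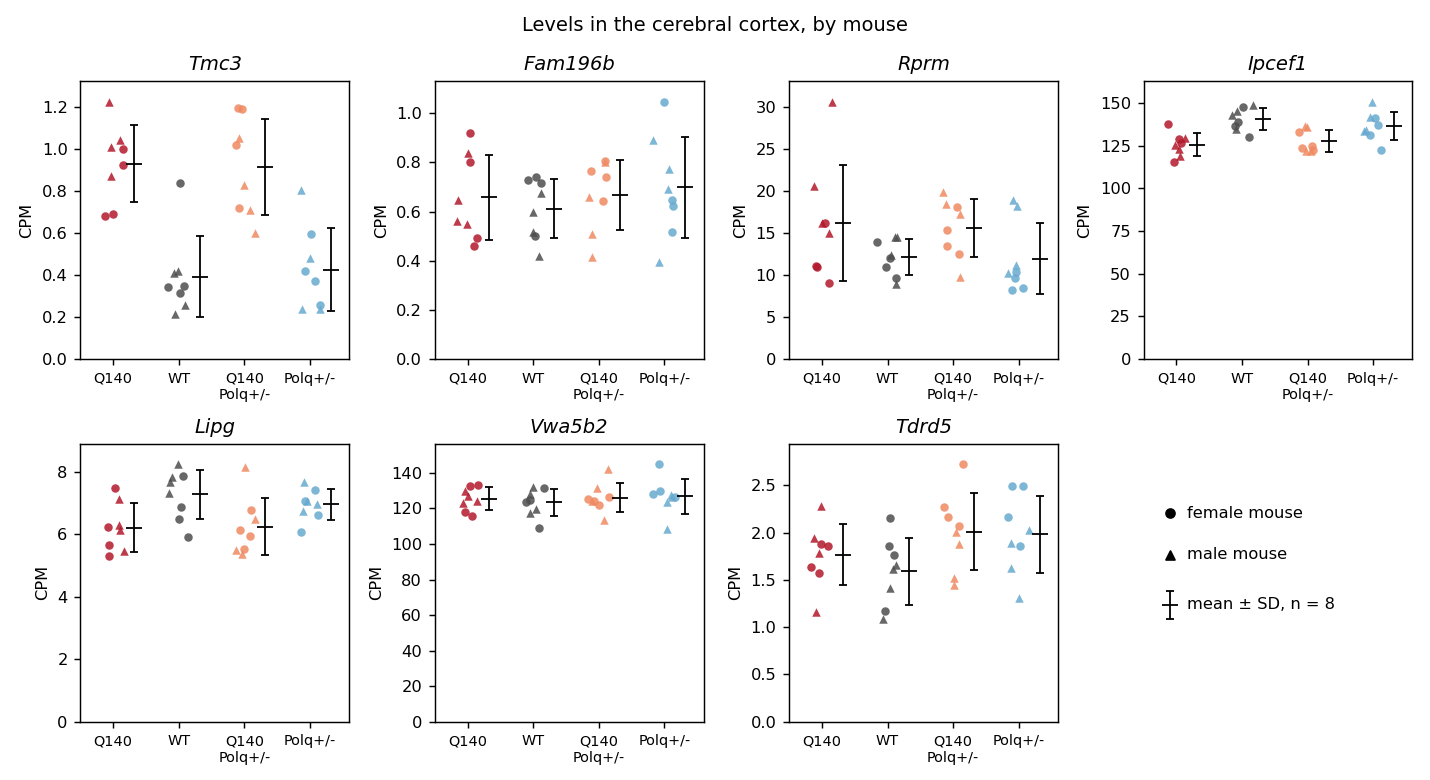
Level of each gene in the cerebral cortex (CPM, linear axes from 0), drawn as in the plot of striatal levels. Tmc3 is higher in both carrier groups, Ipcef1 and Lipg lie lower in Q140 than in WT mice, and WT female 4 stands above the other WT mice for Tmc3 at 0.835 CPM.

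The normal distribution of the genes between the tissues was then compared within the 8 WT mice, with mouse as a block. Fam196b was higher in WT striatum than in WT cortex by 2.18 on the log2 scale (SE 0.157; adjusted p = 1.88e-16, edgeR), and Tmc3 by 1.5 (SE 0.227; adjusted p = 1.52e-07, edgeR). The other 5 were lower in WT striatum than in WT cortex. Ipcef1 was lower by the widest margin, with a log2 difference of -5.00 (SE 0.0727; adjusted p = 9.38e-34, edgeR), from 4.39 ± 1.25 CPM in striatum and 141 ± 6.60 CPM in cortex (SD, n = 8 each). Lipg had a difference of -3.13 (SE 0.145; adjusted p = 1.86e-21), Vwa5b2 of -3.08 (SE 0.0901; adjusted p = 1.15e-23), Tdrd5 of -2.34 (SE 0.197; adjusted p = 2.96e-14) and Rprm of -1.36 (SE 0.139; adjusted p = 2.98e-10), all by the same edgeR fit. Such tissue differences are common, and the fit called 77.2% of all genes. The WT striatal libraries of this comparison also entered the choice of the genes.

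Set against the mean of WT cortex, the 5 cortex-rich genes covered different parts of the gap in Q140 striatum. Rprm in Q140 striatum stood at 104 ± 11.7% of the WT cortex level, against 38.8 ± 6.69% in WT striatum (SD, n = 8 each). Tdrd5 stood at 60.8 ± 9.54% in Q140 striatum, against 19.8 ± 9.33% in WT striatum, and Vwa5b2 at 24.7 ± 2.65% and 11.9 ± 2.75% in the same order. Lipg reached 18.1 ± 3.99% in Q140 striatum, against 11.4 ± 3.21% in WT striatum. Ipcef1 remained a cortical gene by level, at 6.34 ± 0.454% in Q140 striatum and 3.12 ± 0.886% in WT striatum. Tmc3 and Fam196b were above the WT cortex level in both groups, Tmc3 at 830 ± 183% in Q140 and 291 ± 77.8% in WT striatum, and Fam196b at 1305 ± 101% in Q140 and 467 ± 145% in WT striatum.

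**Figure D4:**
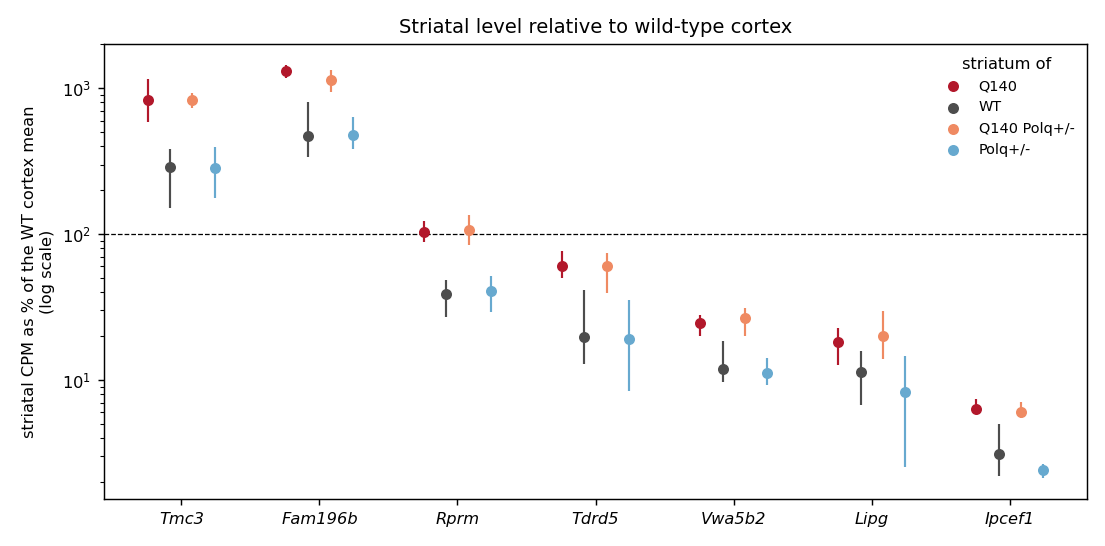
Striatal level of each gene as a percent of its mean in WT cortex (logarithmic axis; the dashed line marks 100%), with the mean of 8 mice as a point and the lowest to highest mouse as a line, for each genotype. In Q140 striatum Rprm reaches 104% and Tdrd5 60.8%, whereas Ipcef1 stays at 6.34%.

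Markers of cortical excitatory neurons were compared because 5 of the 7 genes are cortex-rich. Of the 10 on the list, 8 could be tested in striatum, and 2 were higher and 0 lower in Q140 than in WT striatum (edgeR), with a median log2 fold change of 0.02. Cux2, a homeobox gene of upper cortical layers, averaged 16.6 ± 0.626 CPM in Q140 and 12.7 ± 1.80 CPM in WT striatum (0.40, SE 0.0683; adjusted p = 1.67e-05, edgeR). Slc17a7, the vesicular glutamate transporter of cortical neurons, was not called (3.05 ± 0.705 CPM in Q140 and 5.61 ± 6.97 CPM in WT striatum; adjusted p = 0.109). The summed level of the 10 was 34.8 to 39.6 CPM in Q140 striatum, against 29.6 to 64.5 CPM in WT striatum, and no marker of the list was at 0. The 64.5 CPM was that of WT male 2. The other 7 WT libraries had 29.6 to 34.0 CPM, so every Q140 library lay above them. On the Polq+/- background the groups overlapped, with 34.5 to 40.5 CPM in Q140 Polq+/- and 30.2 to 36.8 CPM in Polq+/- striatum. As a share of WT cortex, the sum had a median of 1.56% in Q140 striatum, against 1.39% in WT striatum. Its range was 1.46 to 1.66% in Q140 striatum and 1.24 to 1.42% in WT striatum without WT male 2. Rorb, also on the list, averaged 12.5 ± 0.561 CPM in Q140 and 12.9 ± 1.05 CPM in WT striatum. The striatal sum thus rested largely on Cux2 and Rorb. The part of cortical tissue in the differences of the 7 genes was not tested.

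Markers of other cell types were counted beside all genes, of which 2774 of 18270 were lower in Q140 against WT striatum. All 10 shared spiny neuron markers were called lower in Q140 striatum, with a median log2 fold change of -0.66 and a summed level of 9703 to 11408 CPM, against 15372 to 18852 CPM in WT striatum. Of the 8 microglial markers 6 were lower, of the 9 endothelial markers 7 and of the 6 deep-layer cortical markers 1, and none of these lists had a marker called higher. The 6 deep-layer genes had a median sum of 455 CPM in WT striatum and 90.7 CPM in WT cortex. Their sum therefore does not mark cortical cells in these striatal libraries. It rested largely on Syt6 and Tle4, at 210 and 169 CPM in WT striatum, whereas Cplx3 had 0.449 CPM. The 9 interneuron markers had 0 calls in either direction by edgeR, and the 8 astrocyte markers had 1, Aldoc, which was lower. On the Polq+/- background, edgeR called 10 of the spiny, 0 of the microglial, 5 of the endothelial, 2 of the deep-layer and 3 of the astrocyte markers lower in Q140 Polq+/- striatum, and 2798 of all 18270 genes. Endothelial markers summed to 194 to 214 CPM in Q140 striatum, against 224 to 250 CPM in WT striatum. Their median sum was 233 CPM in WT striatum and 238 CPM in WT cortex. Lipg, the endothelial lipase, averaged 0.827 CPM in WT striatum and 7.28 CPM in WT cortex, so it did not follow these markers between tissues. The part of these cell types in the 7 differences was not tested.

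The Polq+/- label gave a contrast that the rule did not use, although the same libraries entered the choice of the genes. Averaged over both Q140 states, with 16 labelled mice against 16 others, 0 of the 7 were called in striatum, where edgeR called 0.0985% of all genes. Ipcef1 had the smallest unadjusted p, at -0.22 on the log2 scale (SE 0.0720, unadjusted p = 0.00354, adjusted p = 0.999, edgeR). It averaged 8.5 ± 0.771 CPM in Q140 Polq+/- and 8.90 ± 0.638 CPM in Q140 striatum, and 3.39 ± 0.253 CPM in Polq+/- and 4.39 ± 1.25 CPM in WT striatum (SD, n = 8 each). Its WT mean includes WT male 2 at 7.01 CPM, and without the 3 striatal libraries that stand apart the difference was -0.17 (SE 0.0541, unadjusted p = 0.00310, edgeR). The other 6 had log2 differences between -0.17, for Lipg, and 0.05, for Rprm. DESeq2 also called 0 of the 7, with Ipcef1 alone under an unadjusted p of 0.05.

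In cortex 0 of the 7 were called for the Polq+/- label, where edgeR called 0.110% of all genes and DESeq2 likewise called 0 of the 7. Tdrd5 had the smallest unadjusted p there, at 0.24 on the log2 scale (SE 0.0928, unadjusted p = 0.0126, adjusted p = 0.789, edgeR). It averaged 2.01 ± 0.409 CPM in Q140 Polq+/- and 1.77 ± 0.324 CPM in Q140 cortex, and 1.98 ± 0.408 CPM in Polq+/- and 1.59 ± 0.356 CPM in WT cortex.

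Whether the Polq+/- label altered the levels reached in Q140 striatum was asked directly, as this is the cross the study made. Between Q140 Polq+/- and Q140 striatum, 0 of the 7 were called and 0 had an unadjusted p under 0.05, by edgeR and by DESeq2, where edgeR called 0.0547% of all genes. The log2 differences were 0.01 for Tmc3 (95% interval -0.27 to 0.29), -0.19 for Fam196b (-0.41 to 0.02), 0.03 for Rprm (-0.17 to 0.23) and -0.07 for Ipcef1 (-0.26 to 0.12). They were 0.13 for Lipg (-0.24 to 0.51), 0.09 for Vwa5b2 (-0.11 to 0.30) and -0.01 for Tdrd5 (-0.38 to 0.36). These intervals do not show that the groups are alike, and the libraries of both groups also entered the choice of the genes.

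**Figure D5:**
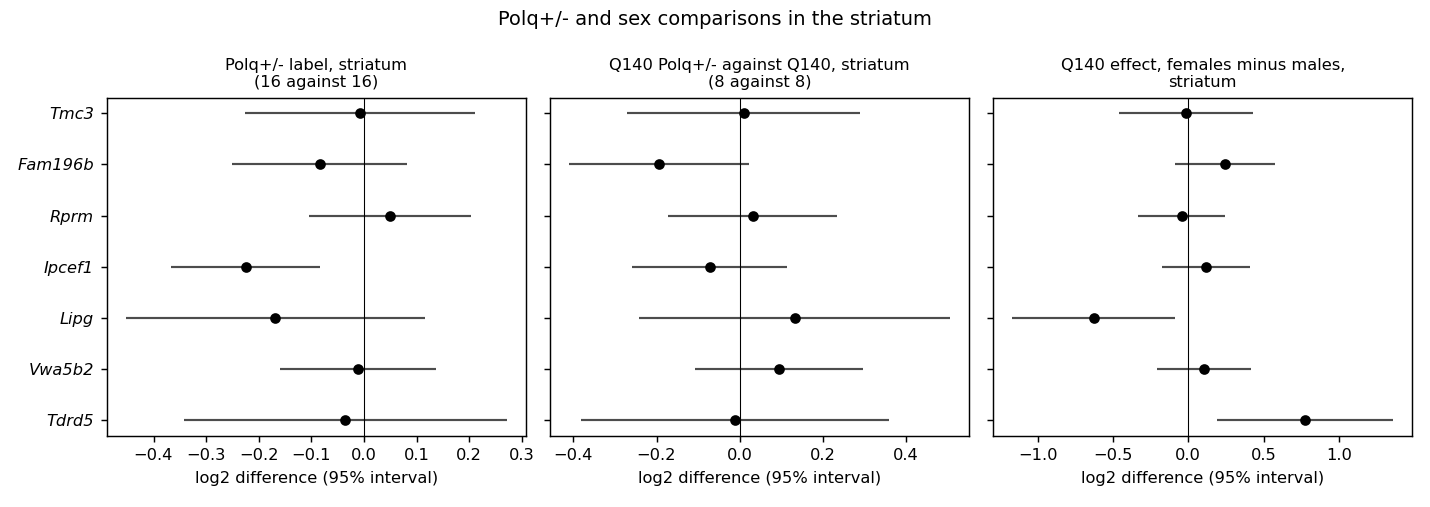
Log2 difference of each gene with its 95% interval in 3 striatal comparisons: mice labelled Polq+/- against the rest, Q140 Polq+/- against Q140 mice, and the Q140 effect in females minus that in males. The intervals of Ipcef1 in the first and of Lipg and Tdrd5 in the last lie to 1 side of 0, yet none of the 7 was called after adjustment over all genes.

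The Q140 effect was also compared between the sexes. The difference, females minus males and averaged over both backgrounds, was called for 0 of the 7 and for 0.00% of all genes by edgeR, with 881 of 18270 genes under an unadjusted p of 0.05, and DESeq2 called 0 genes. Tdrd5 and Lipg were the 2 genes of the 7 under an unadjusted p of 0.05 by both tools. The Tdrd5 effect was larger in females by 0.77 on the log2 scale (SE 0.299, unadjusted p = 0.0143, adjusted p = 0.967, edgeR). It averaged 0.991 ± 0.133 CPM in Q140 females and 0.256 ± 0.0423 CPM in WT females, and 0.942 ± 0.185 CPM in Q140 males and 0.372 ± 0.201 CPM in WT males (SD, n = 4 each). On the Polq+/- background Tdrd5 averaged 1.04 ± 0.186 CPM in Q140 Polq+/- females and 0.236 ± 0.0941 CPM in Polq+/- females. Males had 0.876 ± 0.202 and 0.374 ± 0.139 CPM in the same order. Without the 3 libraries that stand apart, which include WT males 2 and 3, the difference was 0.53 (SE 0.300, unadjusted p = 0.0853, edgeR).

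The Lipg effect was smaller in females by the same measure (-0.63, SE 0.276, unadjusted p = 0.0298, adjusted p = 0.967, edgeR). Lipg averaged 1.52 ± 0.478 CPM in Q140 Polq+/- females and 0.796 ± 0.205 CPM in Polq+/- females, and 1.40 ± 0.304 CPM in Q140 Polq+/- males and 0.407 ± 0.159 CPM in Polq+/- males (SD, n = 4 each). On the WT background Lipg averaged 1.26 ± 0.363 CPM in Q140 females and 0.920 ± 0.180 CPM in WT females. Males had 1.38 ± 0.235 and 0.735 ± 0.269 CPM in the same order. The means of the sexes lay farther apart in the controls than in the carriers on both backgrounds. Across all striatal mice 0 of the 7 were called between females and males by edgeR or DESeq2, where edgeR called 0.394% of all genes, and only Lipg had an unadjusted p under 0.05 (0.31 higher in females, SE 0.138, unadjusted p = 0.0300, edgeR).

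Several of the genes overlap another gene on the opposite strand, and no source used here states whether the counting took account of strand. If it did not, reads from shared exons could not be assigned to one partner. Tmc3 shares 3961 exon bases, 43.9% of its own, with the antisense transcript Gm16638. Gm16638 had 15.8, 20.6 and 22.1 CPM (lowest, median, highest) in Q140 striatum, against 13.2, 15.7 and 18.3 CPM in WT striatum, and was called higher (0.35, SE 0.0712; adjusted p = 0.000226, edgeR). In cortex it averaged 9.44 ± 0.691 CPM in Q140 and 9.94 ± 1.47 CPM in WT mice, where Tmc3 was higher in Q140 mice. Fam196b lies wholly inside the span of Dock2, a guanine exchange factor of immune cells, with 0 shared exon bases. Dock2 averaged 4.68 ± 0.427 CPM in Q140 and 4.66 ± 0.263 CPM in WT striatum (0.01, SE 0.0679; adjusted p = 0.942, edgeR).

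Ipcef1 shares 96 exon bases, 1.07% of its own, with Oprm1, the mu opioid receptor. Oprm1 averaged 5.53 ± 1.11 CPM in Q140 and 4.18 ± 1.24 CPM in WT striatum (0.41, SE 0.142; adjusted p = 0.0239, edgeR), with a difference of 0.10 (adjusted p = 0.640) in Q140 Polq+/- against Polq+/- striatum. Vwa5b2 shares 4 bases with Alg3, which had 9.60 ± 1.03 CPM in Q140 and 9.52 ± 0.727 CPM in WT striatum, and 428 bases with Gm49748, which was not analysed here. Tdrd5 shares 176 bases with 4930518J20Rik, whose highest striatal level in any group was 0.0336 CPM. A430050A11Rik, inside Tdrd5 on the same strand, did not exceed 0.0827 CPM in striatum, and a processed pseudogene, Gm15536, and the miRNA gene Mir1224 lie within Ipcef1 and Vwa5b2 without sharing their exons.

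Among 13 of the nearest tested neighbours, 3 were called in Q140 against WT striatum, where 32.1% of all genes were called. Stard5, 6.34 kb beyond Tmc3, was higher (0.47, SE 0.112; adjusted p = 0.00145), and so was Spdl1, 387 kb from Fam196b (0.55, SE 0.158; adjusted p = 0.00584), whereas Fam163a, 50.3 kb from Tdrd5, was lower (-0.26, SE 0.0804; adjusted p = 0.0112, all by edgeR). The 10 others (Mex3b, Lcp2, Gm13502, Galnt13, Rgs17, Cnksr3, Acaa2, Rpl17, Abcf3 and Camk2n2) had log2 fold changes between -0.17 and 0.15. Of the 13, 4 were called in Q140 Polq+/- against Polq+/- striatum, where 31.4% of all genes were called. They were Stard5 (0.56, adjusted p = 0.000213), Fam163a (-0.42, adjusted p = 7.36e-05), Mex3b (-0.24, adjusted p = 0.0162) and Galnt13 (-0.11, adjusted p = 0.0255, edgeR), and Spdl1 was not called there (0.33, adjusted p = 0.118, edgeR). The 7 genes were chosen on their Q140 differences and the neighbours were not, so the sizes of their changes are not compared.

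The relatives and partners of the genes were compared in 7 lists, beside all 18270 genes tested, of which 3095 were higher and 2774 lower in Q140 against WT striatum. Of 7 tested genes of the Tmc family and its channel partners, 1 was higher and 2 lower in Q140 against WT striatum (median log2 fold change 0.01). Lhfpl5, a partner of the hair-cell channel, was higher (0.44, adjusted p = 0.00938), while Tmc4 (-0.56, adjusted p = 1.54e-07) and Tmc8 (-0.65, adjusted p = 0.00241) were lower. Of 14 genes of the inhibitory postsynapse, 5 were higher and 1 lower (median 0.04). They included dystrophin, Dmd (0.26, adjusted p = 1.50e-06), and the adhesion protein gene Slitrk3 (0.21, adjusted p = 5.39e-06), both higher. The median log2 fold change over all genes tested was 0.00 (all adjusted p in this account of lists are from edgeR).

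Of 18 p53 and cell-cycle arrest genes, 3 were higher and 5 lower (median -0.10), with Rprm itself not on the list. Sfn (-0.86, adjusted p = 6.33e-08) and Gadd45a (-0.85, adjusted p = 3.75e-07), both p53 targets that arrest the cell cycle, and the kinase gene Plk2 (-0.31, adjusted p = 2.10e-06) were lower. Of 17 cytohesin and ARF6 pathway genes, 0 were higher and 5 lower by edgeR (median 0.01), led by the ARF GTPase-activating protein gene Git1 (-0.57, adjusted p = 8.83e-18) and the exchange factor genes Psd (-0.37, adjusted p = 7.40e-10) and Iqsec2 (-0.18, adjusted p = 0.00191). Of 15 lipase and lipoprotein genes, 2 were higher and 2 lower (median -0.03). Lipe, hormone-sensitive lipase (0.22, adjusted p = 0.000915), and the cholesterol exporter gene Abca1 (0.22, adjusted p = 0.00641) were higher, and Apoe (-0.16, adjusted p = 0.00188) was lower.

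Of 8 other von Willebrand A domain genes, 1 was higher and 2 lower (median -0.15). Vwa7 had the widest difference, from 2.43 ± 0.404 CPM in Q140 and 7.27 ± 1.84 CPM in WT striatum (-1.57, adjusted p = 7.11e-10), opposite to Vwa5b2. Vwa1 (-0.32, adjusted p = 3.62e-05) was lower and Vwa8 (0.15, adjusted p = 0.000196) higher. Of 15 tested Tudor and piRNA pathway genes, 4 were higher and 3 lower (median -0.03). Those of smallest p were Tdrd7 (-0.17, adjusted p = 1.91e-05), Tdrkh (-0.16, adjusted p = 6.33e-05) and Piwil2 (-0.71, adjusted p = 0.00144), all lower where Tdrd5 was higher.

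The genes whose levels tracked each of the 7 most closely over the 64 libraries were sought among 13797 named genes, by Pearson's r of log2 CPM. Because the libraries come from 2 tissues, r is high for any gene with a like tissue difference, and it is given as a description. For Ipcef1 these were Faah (r = 0.997) and Faim2 (0.995), for Vwa5b2 Syp (0.993) and Stmn2 (0.992), for Lipg Aars (0.974) and Cnih3 (0.973), and for Fam196b N4bp2 (0.973). Tdrd5 was closest to Dzip1 (0.944) and Zyx (0.939), Tmc3 to Nr3c2 (0.895) and Chd3 (0.893), and Rprm to Foxp4 (0.891) and Cdh18 (0.891). Tmc3 and Rprm thus had the least close matches.

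Whether the genes varied together among mice of 1 genotype and sex was examined over the 32 striatal libraries, after removing the mean of each genotype and sex. Over 35 relations (21 pairs of the 7, and each of the 7 with the cortical excitatory and spiny marker means), 0 passed after Benjamini-Hochberg adjustment. The closest pair was Fam196b and Ipcef1 (Pearson's r = 0.73, permutation p = 0.00780, adjusted p = 0.136; Spearman's rho = 0.57, permutation p = 0.00541, adjusted p = 0.0947), and r was 0.48 without the 2 mice farthest from the median. Fam196b ran against the spiny marker mean (r = -0.64, permutation p = 0.00195, adjusted p = 0.0682; rho = -0.54, permutation p = 0.00512, adjusted p = 0.0947), with r = -0.46 without 2 mice. Of the 21 pairs of the 7 genes, 18 had a positive r, and the median was 0.21. Rprm and Tmc3 had the lowest, at -0.28. Without the 2 farthest mice, r went from 0.59 to 0.27 for Fam196b and Vwa5b2 and from 0.56 to 0.25 for Ipcef1 and Tdrd5. For Rprm and Tdrd5 it went from 0.21 to 0.37. WT male 2 was the highest WT mouse for Fam196b, Ipcef1, Vwa5b2 and Tdrd5, and its part in these r values was not tested. Without the 3 libraries that stand apart, 0 relations were called as well.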

How the data were processed

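Striatal and cortical RNA libraries were made with a stranded TruSeq kit, per the labels' protocols. Reads were processed with STAR 2.7.5c, SAMtools 1.10 and HTSeq 0.12.3 on GRCm38 (mm10), per the submitters' processing notes. The authors deposited raw read counts per gene and FPKM values per gene (scaled to gene length and library size). The FPKM were the counts rescaled per length, with a relative spread of at most 6.94e-09 over 15456 genes. The tables held 48795 genes, and 27 gene names turned into dates were restored.

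Tests on the counts used edgeR 4.0.16 under R 4.3.3 (TMM scaling, filterByExpr, quasi-likelihood fit on genotype and sex per tissue over all 32 libraries, Benjamini-Hochberg over all genes tested, adjusted p under 0.05). Tissue contrasts kept the mouse as a block. SE was taken from the fitted change and its F. DESeq2 1.42.0 and limma 3.58.1 on log2(FPKM + 0.1) and log2(FPKM + 1) were alternatives, and the edgeR fits were tested on simulated data. Levels are CPM, a sample is 1 mouse, and intervals cover 95%. The 35 relations among mice used 100000 permutations.

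The 7 genes, the gene lists and the rule for named genes were chosen with earlier results of these data known. The rule named all 7, their overlapping genes and nearest tested neighbours, the 2 most alike genes of each, and the 3 genes of smallest p in each list; a few genes it named are not reported here. The lists not spelled out in the text were spiny direct and indirect pathway, oligodendrocyte, choroid plexus, ependyma, cerebellar granule, thalamus and erythroid markers. In Q140 against WT striatum they had 2 higher and 4 lower of 7, 0 and 4 of 5, 0 and 2 of 8, 0 and 0 of 6, 0 and 0 of 5, 0 and 2 of 2, 1 and 0 of 5, and 0 and 0 of 5 tested, in that order (edgeR).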

Additional observations from a re-analysis of the deposited data

Results flagged for a closer look

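In 56 groups of 8 mice checked, 5 had 1 mouse far from the others, where chance flags about 1 in 20. WT male 2 stood above the other WT striatal mice for 3 of the genes. It had 4.91 CPM of Fam196b, where the next mouse had 3.18 CPM, 22.8 CPM of Vwa5b2, where the next had 15.2 CPM, and 0.656 CPM of Tdrd5, where the next had 0.370 CPM. The same library held 189 CPM of cerebellar granule cell genes and 64.5 CPM of cortical excitatory genes, and their part in these values was not tested. Q140 female 2 had 10.3 CPM of Ipcef1 in striatum, where the next Q140 mouse had 9.15 CPM. WT female 4 had 0.835 CPM of Tmc3 in cortex, where the next WT mouse had 0.420 CPM.

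Ipcef1 and Lipg were flagged for opposite directions in the 2 tissues. All 8 Q140 mice lay above the WT median in striatum and all 8 lay below it in cortex for both genes. The mean Q140 cortex differed from the WT cortex median by -15.1 CPM for Ipcef1 and by -1.28 CPM for Lipg. The difference between tissues was not tested, because it was part of the rule that chose the genes.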

How the results depend on the processing

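All 7 genes were called in both striatal Q140 comparisons, with their direction kept, under DESeq2 size factors in edgeR, DESeq2, no low-count filter, only the compared groups, no sex term, the replicate block, a plate-column term, limma on FPKM with either pseudocount, and leaving out the 3 libraries that stand apart or each of 32 striatal libraries in turn. The genes were chosen on these contrasts, where the main fit called 32.1% and 31.4% of all genes, so nothing is read from these calls. On log2(FPKM + 1) the changes shrank by construction, to 0.13 for Tdrd5, 0.16 for Lipg and 0.29 for Tmc3 in Q140 against WT striatum. Of the 2 genes called in Q140 against WT cortex, 0 were called with the plate-column term, 1 with DESeq2 (which gave Tmc3 no adjusted p), 1 with FPKM + 0.1 and 1 with FPKM + 1. The 1 gene called in Q140 Polq+/- against Polq+/- cortex became 0 with the plate-column term and 0 with FPKM + 1. In that comparison Vwa5b2 reversed to 0.00825 with FPKM + 0.1 and 0.00776 with FPKM + 1, and Tdrd5 to -0.0243 with the plate-column term. The cause was not tested. The Polq+/- comparisons called 0 of the 7 without the 4 mice of lowest Polq as well. With the replicate block, 7 genes were called in either striatal comparison. Same-numbered mice of different genotypes shared little, with a median r of 0.0189 between their striatal deviations, against -0.00257 for other numbers. Of 32 libraries, 7 correlated best with their own number. Whether the numbers pair the mice was not tested. Low read numbers limit Tdrd5 and Lipg in striatum and Tmc3 and Fam196b in cortex.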
